A study of Mus musculus with 359 samples.

Results

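The genes described here are Ahr, which encodes the aryl hydrocarbon receptor, and 6 of its best known target genes, Cyp1a1, Cyp1a2, Cyp1b1, Aldh3a1, Ahrr and Tiparp. They were chosen by name, as 7 of the 24421 genes in each count table. The transcripts were counted by RNA sequencing in livers and lungs of both sexes of B6C3F1 mice, a hybrid of C57BL/6 and C3H, after 4-methylimidazole (4-MEI), an imidazole found in caramel colours. Mice received 50, 100, 200 or 300 mg/kg-d by gavage for 2 days, or 150, 300, 1250 or 2500 ppm in feed for 5 or 28 days, and each set had a vehicle or 0 ppm group of the same sex, day and route. There were 359 libraries in 60 groups of tissue, day, sex and dose, of which 59 held 6 libraries and 1, the lungs of females fed 2500 ppm for 5 days, held 5. All groups share the strain background, and the labels give no genotype or age for the mice, and they do not say whether a library is 1 animal, so the p-values measure the spread between libraries.

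AHR is a transcription factor that waits in the cytoplasm until a planar aromatic compound binds it. It then enters the nucleus, pairs with ARNT and binds DNA at a short element with the core GCGTG. Cyp1a1, Cyp1a2 and Cyp1b1 encode the cytochromes P450 of family 1, which oxidise polycyclic aromatic hydrocarbons and aromatic amines. Aldh3a1 encodes an aldehyde dehydrogenase that protects surface epithelia. Ahrr encodes a repressor that competes with AHR for ARNT, and Tiparp encodes an ADP-ribosyltransferase that dampens AHR, so both act as feedback. Cyp1a2 is made constitutively by hepatocytes around the central vein, while Cyp1a1 induction in endothelium and epithelium is the usual sign of AHR activation in lung.

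The promoters are shown because the members share a regulator, and because they differ in how many copies of the core of its element lie next to the start. The 250 bases before the RefSeq transcription start (GRCm38.p6), in the direction of the gene, hold GCGTG or its complement CACGC in capitals. The element core begins 54 bases before the start in Cyp1a1 (chr9:57697363-57697612, plus strand). It occurs 3 times in Ahrr, the nearest 27 bases before the start (chr13:74292332-74292581, minus strand). On the opposite strand it lies 76 bases before the start in Cyp1b1 (chr17:79715062-79715311, minus strand) and 170 bases before it in Tiparp (chr3:65528197-65528446, plus strand). The window of Cyp1a2 (chr9:57683656-57683905, minus strand) holds none of these letters.
Cyp1a1: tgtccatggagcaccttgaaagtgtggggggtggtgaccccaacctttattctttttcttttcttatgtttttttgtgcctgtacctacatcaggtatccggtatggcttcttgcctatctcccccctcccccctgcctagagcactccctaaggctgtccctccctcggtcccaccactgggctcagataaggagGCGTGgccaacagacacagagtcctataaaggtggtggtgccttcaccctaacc
Cyp1a2: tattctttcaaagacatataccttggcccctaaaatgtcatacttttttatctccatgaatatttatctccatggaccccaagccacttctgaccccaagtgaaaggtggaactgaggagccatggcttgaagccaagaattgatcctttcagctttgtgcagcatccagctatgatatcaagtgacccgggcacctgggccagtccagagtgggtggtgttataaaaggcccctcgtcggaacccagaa
Cyp1b1: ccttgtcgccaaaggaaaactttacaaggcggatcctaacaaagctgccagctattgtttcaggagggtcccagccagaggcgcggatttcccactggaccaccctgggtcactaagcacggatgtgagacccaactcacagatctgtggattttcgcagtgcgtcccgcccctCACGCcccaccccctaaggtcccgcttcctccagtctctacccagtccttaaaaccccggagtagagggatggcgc
Ahrr: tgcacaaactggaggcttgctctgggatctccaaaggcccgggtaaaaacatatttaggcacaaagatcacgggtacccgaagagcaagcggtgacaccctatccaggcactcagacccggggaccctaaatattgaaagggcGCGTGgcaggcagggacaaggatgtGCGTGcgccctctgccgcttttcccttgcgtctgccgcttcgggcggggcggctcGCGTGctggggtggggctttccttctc
Tiparp: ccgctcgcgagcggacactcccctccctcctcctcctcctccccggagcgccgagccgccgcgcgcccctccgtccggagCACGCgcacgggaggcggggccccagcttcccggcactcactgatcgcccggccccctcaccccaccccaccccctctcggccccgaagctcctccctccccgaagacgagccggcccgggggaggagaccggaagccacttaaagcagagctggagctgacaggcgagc
The letters GCGTG on either strand occur in 28.2% of the 32851 promoter windows of the same length, so a match in 4 of 5 members describes these windows and does not mark a bound site. The longer form TNGCGTG, which contains GCGTG, was found in 1 of the 5 members and in 4.1% of all windows. Cyp1a1 and Cyp1a2 are neighbours on chromosome 9, at 57687928 to 57703824 (plus strand) and 57676937 to 57683703 (minus strand). The others lie at 79701537 to 79715061 on chromosome 17 (Cyp1b1, minus strand), 74211118 to 74292331 on chromosome 13 (Ahrr, minus strand), 65528410 to 65555518 on chromosome 3 (Tiparp, plus strand), 61207537 to 61218421 on chromosome 11 (Aldh3a1, plus strand) and 35497974 to 35535038 on chromosome 12 (Ahr, minus strand), in GENCODE annotation of GRCm38.

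Library totals lay between 8457034 and 22527309 counts in liver and between 7253910 and 21473135 counts in lung. The tissue markers fitted the labels: Alb, the serum albumin of hepatocytes, lay between 69640 and 177900 CPM (read counts scaled to library size) in liver, and Sftpc, the surfactant protein of alveolar type 2 cells, between 11490 and 44560 CPM in lung. Some lung libraries held RNA of other kinds. A list of 8 markers of squamous and basal epithelium summed to more than 10 CPM on library totals in 9 lung libraries, with 4411 CPM in a male fed 300 ppm for 5 days and 2603 CPM in a vehicle female of that day (replicate 90), against 1.53 to 9.34 CPM in the other 170. Replicate 12 (female, vehicle, day 2) held 257 CPM of Alb in lung. At day 28 the dose differed between title and characteristics in 96 libraries and the sex in 48, and the titles were used, since 4 Y-linked genes matched their sex in 359 of 359 libraries. In bulk tissue, fewer cells of a type and less RNA per cell cannot be told apart.

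In vehicle animals the members differed strongly between liver and lung. Cyp1a2 was nearly all in liver, Aldh3a1 nearly all in lung, and Cyp1a1, Cyp1b1 and Tiparp were higher in lung in both sexes on every day. Ahr itself was close in both tissues when they were scaled together, but 3.23-fold higher in lung on library totals. For this comparison the vehicle libraries of both tissues were scaled together, and levels of different genes are compared as CPM per kilobase of transcript.

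In vehicle liver, Cyp1a2 stood at 998 CPM per kilobase (median of 36 libraries, 727.6 to 1655), far above every other member. Ahr followed at 11.9 (6.57 to 17.8), Tiparp at 2.96 (1.74 to 5.29) and Cyp1a1 at 1.58 CPM per kilobase (0.609 to 2.22). Cyp1b1 was at 0.168 CPM per kilobase, Ahrr at 0.0415, and Aldh3a1 had no count in 29 of 36 liver libraries. The ranges of Cyp1a2 and Ahr overlapped with no other member in liver, while Tiparp and Cyp1a1 overlapped each other, as did Cyp1b1, Ahrr and Aldh3a1. In vehicle lung, Ahr was at 16.5 CPM per kilobase (8.89 to 19.5), Cyp1a1 at 14.2 (2.64 to 57.9), Tiparp at 8.92 (7.32 to 12.1) and Aldh3a1 at 8.11 (3.27 to 33.7). These 4 overlapped in range, and the lowest Cyp1a1 and Aldh3a1 libraries also reached into the range of Cyp1b1. Cyp1b1 lay at 1.98 CPM per kilobase (1.56 to 5.67), Ahrr at 0.0508 (0.00809 to 0.0912), and Cyp1a2 had no count in 14 of 36 lung libraries.

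**Figure D1:**
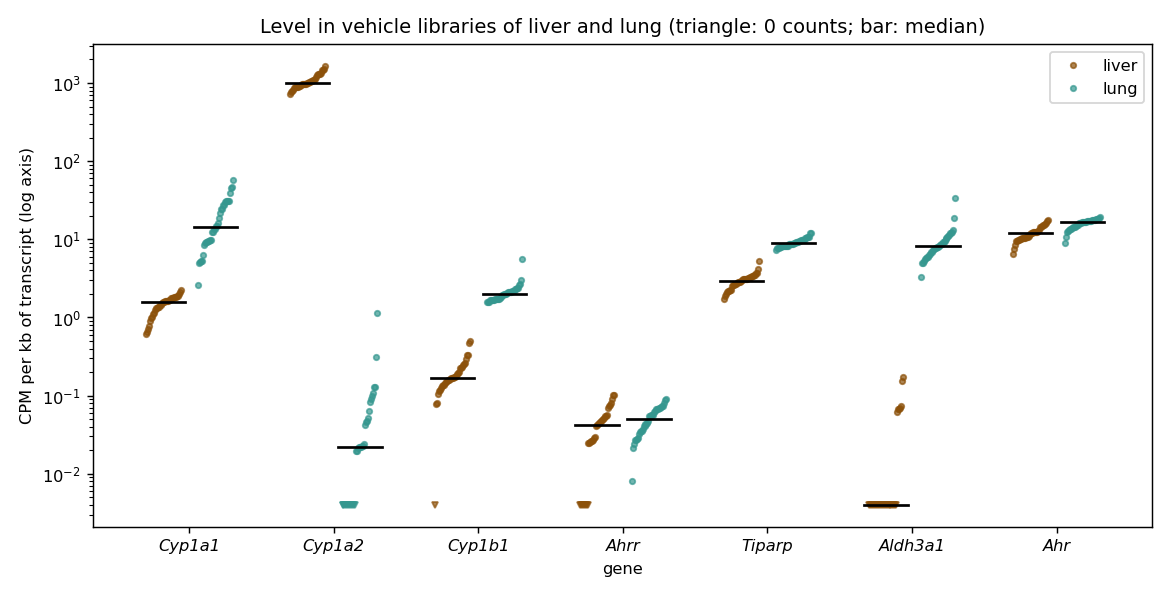
Level of each gene in the 36 vehicle libraries of liver (left) and lung (right), in CPM per kilobase of transcript on a log axis, scaled over both tissues; triangles are libraries with 0 counts. Cyp1a2 is the highest of these genes in liver and at or near 0 in lung, while Aldh3a1 is at or near 0 in liver and among the 4 higher genes in lung.

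Summed over the vehicle libraries, Cyp1a2 had a level of 2065 CPM in liver and 0.148 CPM in lung, a ratio of 13960 (95% counting interval 11720 to 16760). Replicate 12, the library with 257 CPM of Alb, gave 63 of the lung counts and the other 35 lungs together 63, and without that library the ratio was 27000. Aldh3a1 had 9 counts in liver and 13632 in lung, 536-fold higher in lung (282.5 to 1173). Cyp1a1 was 13.1-fold higher in lung (12.3 to 13.9), Cyp1b1 10.8-fold (9.66 to 12.2), Tiparp 3.06-fold (2.96 to 3.17) and Ahr 1.31-fold (1.29 to 1.33). For Ahrr the interval of 0.945 to 1.74 included no difference under this joint scaling. These intervals cover counting error only.

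In the edgeR quasi-likelihood fits of the same libraries, the threshold was an adjusted p of 0.05. 6 members passed it between vehicle liver and lung in both sexes at day 2 and in males at days 5 and 28, and 5 in females at days 5 and 28. Most genes did: 87.8% of all genes tested in males and 87.2% in females at day 2, 86.7% and 85.7% at day 5, and 87.2% and 85.7% at day 28 passed in either direction. The log2 difference liver minus lung ran over the 6 fits from -4.265 to -2.38 for Cyp1a1, from -4.07 to -3.04 for Cyp1b1 and from -1.92 to -1.32 for Tiparp. Ahr was lower in liver by 0.31 to 0.68 in the 4 fits where it passed, and stood at -0.24 (adjusted p 0.063) and -0.11 (adjusted p 0.45) in females at days 5 and 28. Ahrr did not pass in the 4 fits that tested it. The median over all genes was -0.27 to -0.17, and the joint scaling raised liver CPM by 1.57-fold and lowered lung CPM to 0.632 of their value within a table (medians). With library totals in place of it, the lung excess was 32.4-fold for Cyp1a1, 26.8-fold for Cyp1b1 and 7.58-fold for Tiparp. It was 3.23-fold for Ahr, 3.15-fold for Ahrr and 1327-fold for Aldh3a1, and Cyp1a2 was 5642-fold higher in liver. The closeness of Ahr and of Ahrr in the 2 tissues thus depended on the joint scaling.

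Each dose was tested against its vehicle group for every member with enough counts. Over the 24 comparisons of a dose with its vehicle group in liver, 5 of 120 tests of a member passed, all higher, in 4 comparisons, and in lung 5 of 136, all higher, in 4 comparisons. DESeq2 called 5 and 7. In the liver comparisons with a call, the share of all genes called higher was 10% and 15.3% in females at 200 and 300 mg/kg-d. It was 0.218% in males at 2500 ppm on day 5 and 0.403% in females at 2500 ppm on day 28. In lung it was 0.105% in males at 300 mg/kg-d and 3.04% and 3.64% in females at 200 and 300 mg/kg-d. In lung of females fed 2500 ppm for 5 days it was 0.0319%. Cyp1a2 rose in liver after feeding, Cyp1b1 and Tiparp in female liver after gavage, Aldh3a1 in lung of both sexes after gavage, and Cyp1b1 in female lung after gavage and after 5 days of feeding. In the other 20 comparisons of liver the edgeR test called 0 members, DESeq2 called 0, and 9 tests had an unadjusted p under 0.05. In the other 20 of lung edgeR called 0, DESeq2 called 1, and 13 tests had an unadjusted p under 0.05. Ahrr and Aldh3a1 in liver, Cyp1a2 in lung and Ahrr in lung at day 2 held too few counts to be tested. The 4 doses of a sex and day share 1 vehicle group.

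The share of all genes called in either direction differed widely among the comparisons with no member called. In liver at day 2 it was 0.0634%, 4.70%, 0.0158% and 15.1% in males at 50, 100, 200 and 300 mg/kg-d, and 0 and 0.0396% in females at 50 and 100 mg/kg-d. At day 5 it was 0, 0.0390% and 0.101% in males at 150, 300 and 1250 ppm, and 0, 0, 0.0312% and 0.0545% in females at 150 to 2500 ppm. At day 28 it was 0.108%, 0.0155%, 0.163% and 0.0775% in males at 150 to 2500 ppm, and 0, 0 and 0.0387% in females at 150 to 1250 ppm. In lung the shares stayed at or below 0.153%. At day 2 they were 0.00656% in each sex at 100 mg/kg-d and 0 at 50 mg/kg-d in both and at 200 mg/kg-d in males. At day 5 they were 0.0383% in males and 0.0447% in females at 1250 ppm, 0.0128% in females at 300 ppm and 0 in the rest. At day 28 they were 0, 0, 0.0320% and 0.0128% in males and 0.0320%, 0.153%, 0.0831% and 0.121% in females at 150, 300, 1250 and 2500 ppm.

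**Figure D2:**
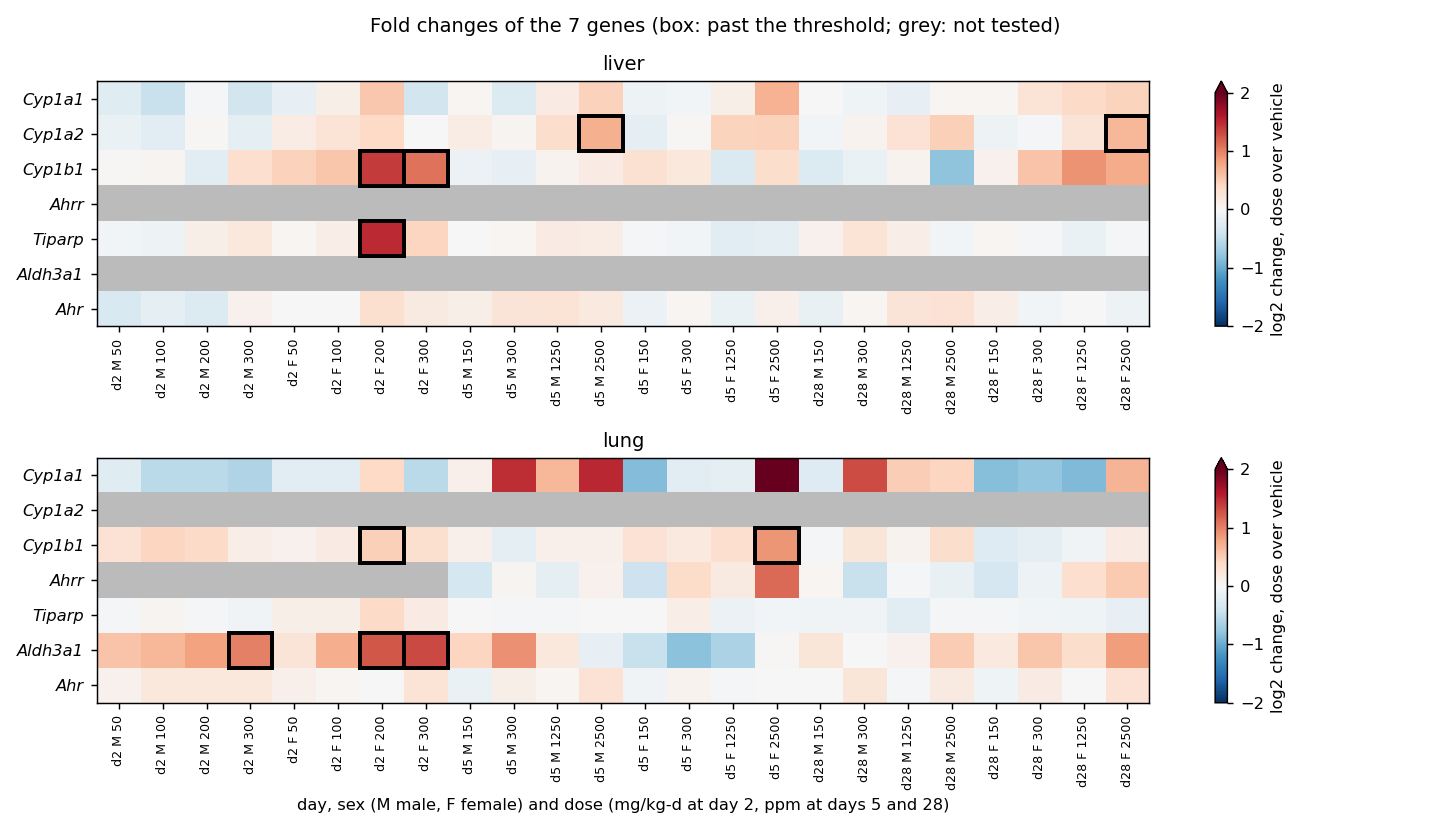
Log2 fold change of each gene for each dose against vehicle, with liver above lung and males and females of each day side by side; boxes mark adjusted p under 0.05 and grey marks genes with too few counts to test. The 10 boxed cells are all higher with 4-MEI.

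Cyp1a2 in liver rose with dose in feed. In males fed 2500 ppm for 5 days it lay at 1920 to 2202 CPM (median 2041), against 1198 to 1309 CPM (median 1246) in vehicle males. Every treated library was above every vehicle library. The log2 change was 0.71 (SE 0.124, adjusted p 0.0012, edgeR), and 0.218% of all genes were called higher there. Its mean was 2042 ± 117.3 CPM with 2500 ppm and 1249 ± 40.2 CPM with vehicle (SD, n = 6 each). In females fed 2500 ppm for 28 days it lay at 1276 to 2873 CPM (median 2066), against 987 to 1783 CPM (median 1180) in vehicle females. The groups overlapped, with 4 of 6 treated libraries above the highest vehicle library. The log2 change was 0.66 (SE 0.169, adjusted p 0.034), with 0.403% of all genes called higher.

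The other 2 groups fed 2500 ppm did not pass. In females at day 5, Cyp1a2 lay at 1350 to 1896 CPM (median 1622), against 887 to 1619 CPM (median 1077) with vehicle (log2 change 0.47, SE 0.124, adjusted p 0.17), and 6 of 6 libraries lay above the vehicle mean. In males at day 28 it lay at 1448 to 2511 CPM (median 2070), against 1124 to 1823 CPM (median 1449) with vehicle (0.47, SE 0.168, adjusted p 0.41), and 5 of 6 lay above the highest vehicle library. The medians at 0, 150, 300, 1250 and 2500 ppm were 1246, 1302, 1320, 1604 and 2041 CPM in males and 1077, 962, 1180, 1618 and 1622 CPM in females at day 5. At day 28 they were 1449, 1430, 1487, 1623 and 2070 CPM in males and 1180, 1226, 1225, 1626 and 2066 CPM in females. The medians at 150 and 300 ppm stayed inside the vehicle range in both sexes on day 28 and in females on day 5, and those at 2500 ppm were above it in all 4 sets.

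The dose trend averaged over the sexes gave the firmest calls for Cyp1a2. It was 0.159 log2 per dose step at day 5 (SE 0.0196, adjusted p 1.7e-07), where 0.615% of all genes were called higher, and 0.148 at day 28 (SE 0.0266, adjusted p 0.00034), where 1.81% were. It passed in all 24 fits of each day that left out 1 library of the highest dose or vehicle. The call in females at day 28 was lost in 7 of 12 such fits (vehicle replicates 170, 174, 175 and 176, dose replicates 235, 236 and 240; adjusted p up to 0.123), while that in males at day 5 held in 12 of 12. Of 7 pericentral markers, 0 passed at 2500 ppm on either day in either sex, with a summed level of 12050 to 15320 CPM in females at day 28, against 9985 to 17480 CPM with vehicle. After gavage, Cyp1a2 passed at no dose, with log2 changes of -0.21 to 0.39 over both sexes and an adjusted p of 0.94 for the trend. Without replicate 64, which had the lowest Cyp1a2 of all livers, females given 200 mg/kg-d did pass (0.55, adjusted p 0.042).

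**Figure D3:**
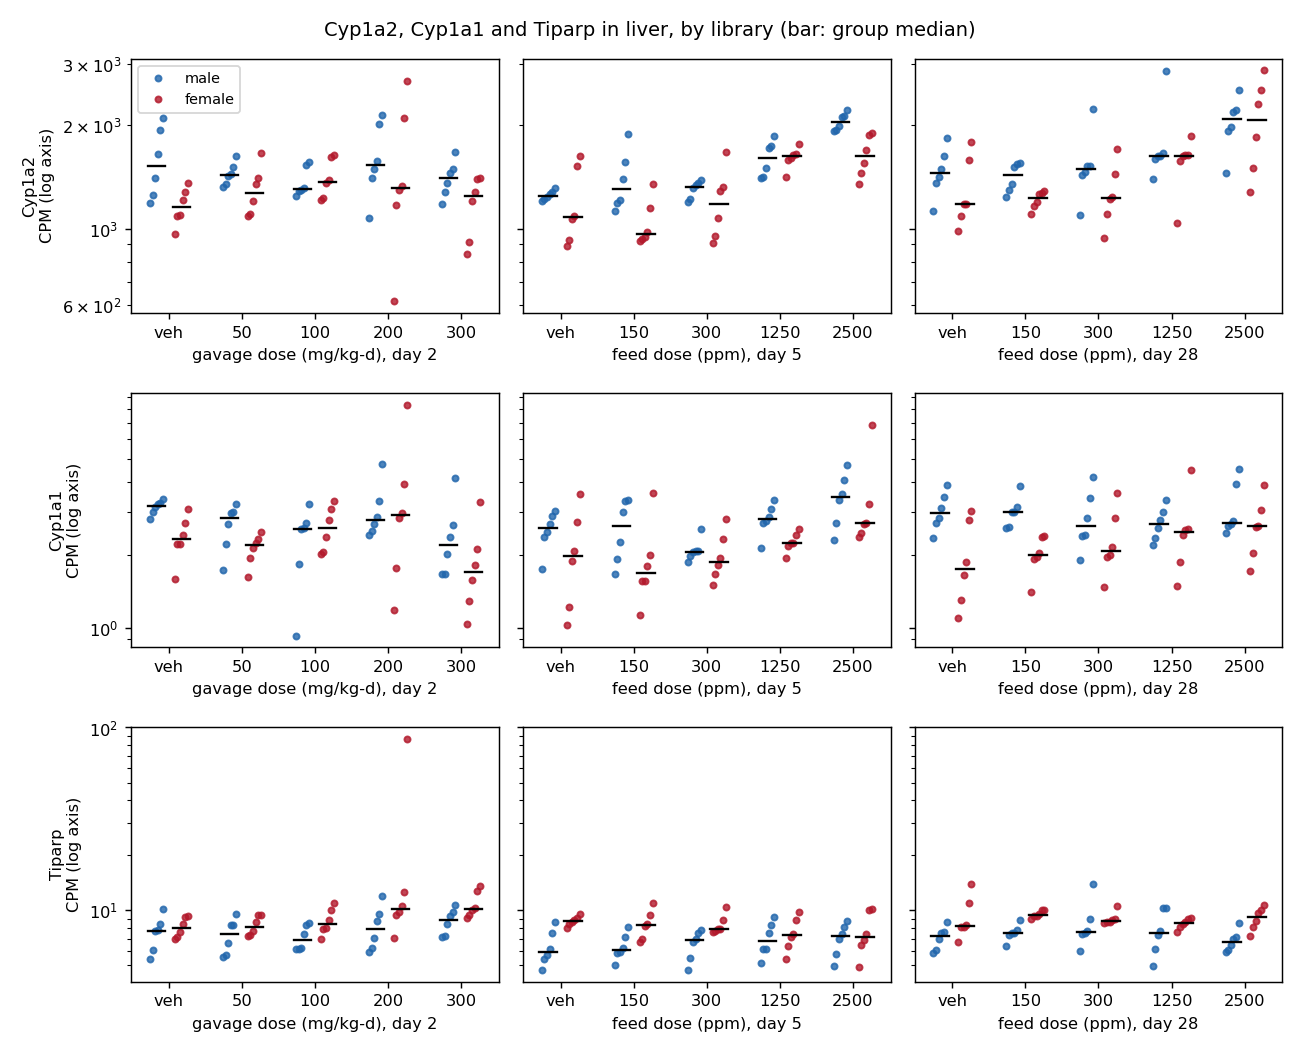
Cyp1a2, Cyp1a1 and Tiparp in liver, CPM on a log axis, for each library by dose at days 2, 5 and 28, with males left of females at each dose and a bar at the group median. Cyp1a2 climbs at 1250 and 2500 ppm in feed, and 1 female library at 200 mg/kg-d stands apart in Tiparp.

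Reporters of other xenobiotic receptors were called in the same livers. In males at day 5 these were Cyp2b10 (log2 change 2.58) and Cyp2c55 (1.51), which report CAR, Cyp3a11 (0.85), which reports PXR, and the NRF2 target Srxn1 (0.42), but not the NRF2 target Gclc (0.07). In females at day 28 Cyp2b10 rose by 1.95, Cyp2c55 by 2.52, Cyp3a11 by 0.98 and Srxn1 by 0.56, and Gclc did not pass (0.45). Near-identical relatives of Cyp2b10, Cyp2c55 and Cyp3a11 may share their reads, which makes those values uncertain. Their part in the rise of Cyp1a2 was not tested. Beside the calls after gavage described below, Cyp2b10 rose in female liver at 200 mg/kg-d (3.34) to 97.6 to 2589 CPM (median 190.02), against 38.3 to 83.97 CPM (median 53.7) with vehicle, and the mean of 574 CPM at that dose lay far above the median. The change at 300 mg/kg-d was 2.48, and Cyp2c55 fell by 1.17 at 200 mg/kg-d. In female lung at 200 mg/kg-d Gclc rose by 0.64, at 159.7 to 468 CPM (median 192), against 138.5 to 164 CPM (median 149.9) with vehicle. Srxn1 rose there by 0.44, at 34.4 to 93.5 CPM (median 41.7), against 33.9 to 39.3 CPM (median 35.7) with vehicle. In these 3 the highest library lay at more than the double of the median, and the changes were not refitted without it. None of the reporters tested was called in lung at 300 mg/kg-d in either sex or in females at 2500 ppm on day 5, where Cyp2c55 and Cyp3a11 had too few counts to test.

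Cyp1a1 in liver was called at no dose. It was sparse there, at 0.931 to 8.34 CPM over 180 libraries. At 2500 ppm for 5 days it lay at 2.37 to 6.89 CPM (median 2.703) in females, against 1.03 to 3.58 CPM (median 1.99) with vehicle (log2 change 0.69, SE 0.232, adjusted p 0.46). In males it lay at 2.32 to 4.69 CPM (median 3.47) at that dose and day, against 1.75 to 3.05 CPM (median 2.59) with vehicle (0.45, adjusted p 0.60). Its trend at day 5 was 0.131 per dose step (SE 0.0373, adjusted p 0.063), and it passed in 4 of 24 fits that left out a library.

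Cyp1a1 in lung was called by dose trend at day 5 and at no single dose. The trend was 0.528 log2 per dose step (SE 0.110, adjusted p 0.0099), where 0.453% of all genes were called higher, and it passed in all 23 fits that left out a library of the highest dose or vehicle (0.438 to 0.559). The group medians at 0, 150, 300, 1250 and 2500 ppm were 34.05, 37.4, 42.7, 56.5 and 66.4 CPM in males and 99.3, 43.9, 55.97, 59.9 and 421 CPM in females. The male medians thus climbed in order, while among the female medians only that of the highest dose was above vehicle. At day 28 the lung trend called 0 of 6 members (3 had an unadjusted p under 0.05), with 0.0447% of all genes called in either direction.

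The 5 lungs of females fed 2500 ppm for 5 days spread over 24.3, 63.8, 421, 1246 and 2347 CPM of Cyp1a1, against 22.2 to 137.8 CPM (median 99.3) with vehicle. The 3 highest were above every vehicle library and the 2 lowest were inside the vehicle range. The log2 change was 3.15 (SE 0.727, adjusted p 0.103, edgeR), and DESeq2 called it (adjusted p 0.0061). The highest value is also the highest of the 179 lung libraries. In males at the same dose and day it lay at 39.5 to 272 CPM (median 66.4), against 22.1 to 54.4 CPM (median 34.05) with vehicle (1.51, SE 0.687, adjusted p 0.56), with 4 of 6 libraries above the highest vehicle library. Single high libraries were seen elsewhere too, such as 372 CPM in a male fed 300 ppm for 5 days, where the next in its group was 52.9 CPM.

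At day 28 Cyp1a1 in lung did not pass. Females fed 2500 ppm lay at 45.4 to 266 CPM (median 125.8), against 11.3 to 197 CPM (median 75.8) with vehicle (log2 change 0.67, SE 0.512, adjusted p 0.68). Males lay at 32.9 to 73.7 CPM (median 52.03), against 35.6 to 41.9 CPM (median 39.8) with vehicle (0.43, SE 0.523, adjusted p 0.89). After gavage the medians in lung were below vehicle at 300 mg/kg-d, at 56.7 CPM against 122.05 in males (-0.59, SE 0.477, adjusted p 0.57) and 59.6 CPM against 82.2 in females (-0.54, SE 0.480, adjusted p 0.53). Neither passed, and the groups overlapped.

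**Figure D4:**
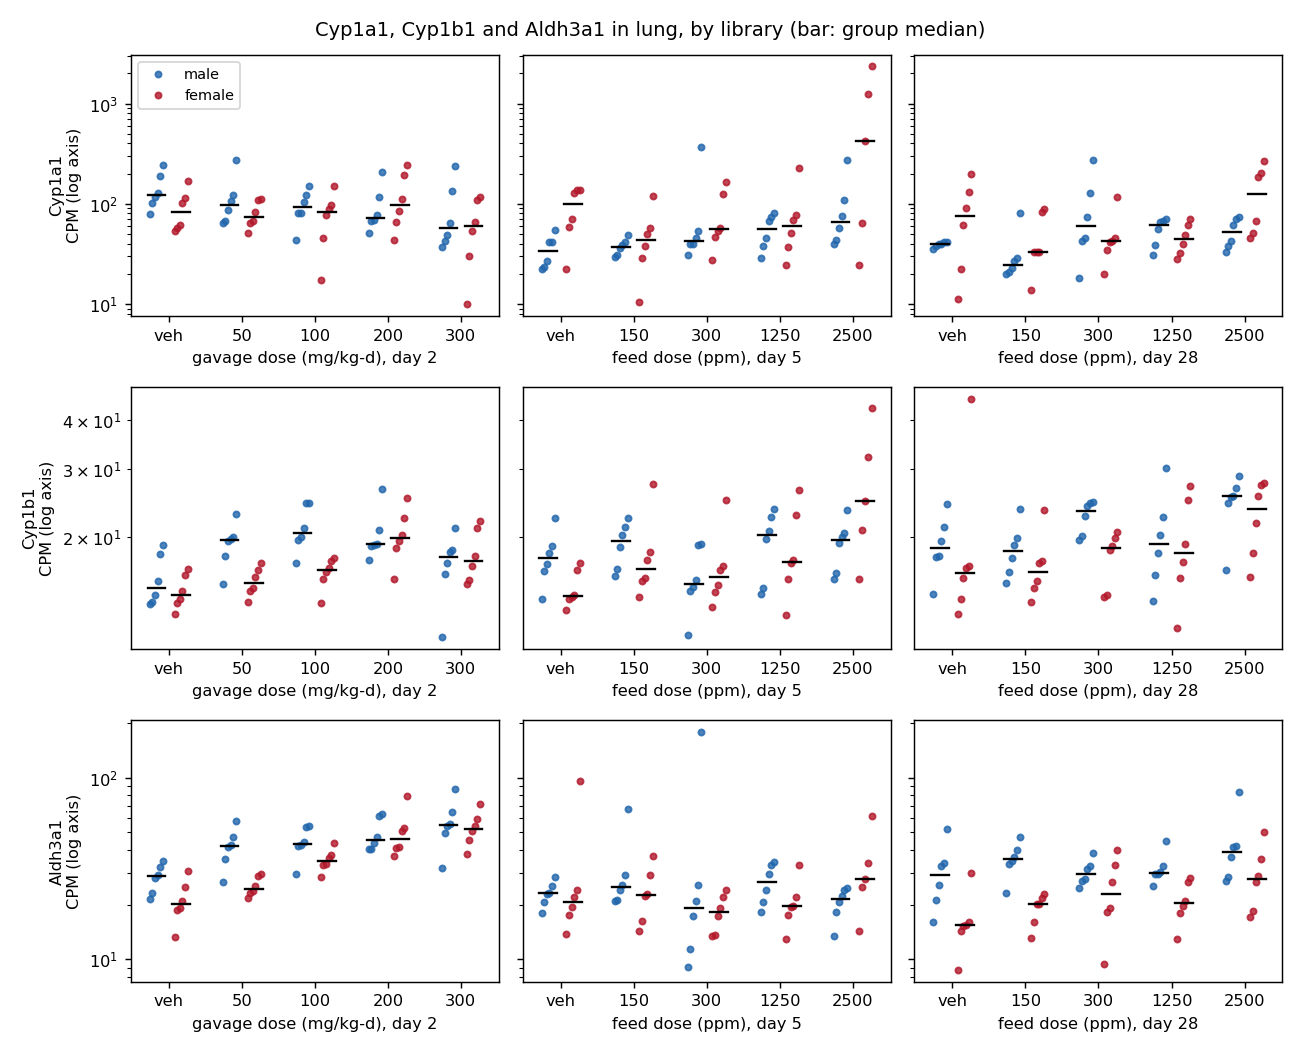
Cyp1a1, Cyp1b1 and Aldh3a1 in lung, CPM on a log axis, for each library by dose at days 2, 5 and 28, with males left of females at each dose and a bar at the group median. Aldh3a1 climbs over the gavage doses, and 3 of 5 female libraries at 2500 ppm on day 5 exceed all vehicle libraries in Cyp1a1.

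Cyp1b1 rose in liver of females after gavage. At 200 mg/kg-d it lay at 0.397 to 3.81 CPM (median 1.15), against 0.259 to 0.809 CPM (median 0.563) with vehicle, and at 300 mg/kg-d at 0.633 to 1.52 CPM (median 1.27). The log2 changes were 1.40 (SE 0.315, adjusted p 0.0024) and 1.08 (SE 0.309, adjusted p 0.0061), where 10% (1263 of 12627) and 15.3% of all genes were called higher. The value at 200 mg/kg-d leaned on replicate 64, at 3.81 CPM, and without it the change was 0.86 (adjusted p 0.075). At 300 mg/kg-d the call held in 12 of 12 fits without a library, and 6 of 6 treated libraries lay above the vehicle mean. In males given 300 mg/kg-d Cyp1b1 lay at 0.725 to 1.303 CPM (median 1.02), against 0.465 to 1.13 CPM (median 0.821) with vehicle (0.33, SE 0.307, adjusted p 0.50), where 8.64% of all genes were called higher. The trend over both sexes was 0.176 per step (SE 0.0492, adjusted p 0.0032), with 21% (2647 of 12627) of all genes called higher. No liver library held more than 42 counts of Cyp1b1. Beside this, 3 of 5 endothelial markers were called higher in liver at 300 mg/kg-d in each sex (summed level in females 136.9 to 159.2 CPM, against 108.7 to 130.9 CPM with vehicle). In females at 200 mg/kg-d 0 of 5 were called. In the same groups 0 of 4 smooth muscle markers were called, and 1 of 5 fibroblast markers was called higher in each. The part of these markers in Cyp1b1 was not tested.

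Cyp1b1 also rose in female lung. At 200 mg/kg-d it lay at 15.6 to 25.3 CPM (median 19.9), against 12.7 to 16.6 CPM (median 14.2) with vehicle, with 5 of 6 libraries above the highest vehicle library. The log2 change was 0.48 (SE 0.118, adjusted p 0.010), where 3.04% of all genes were called higher, and 0.41 (adjusted p 0.086) without replicate 64. At 300 mg/kg-d it lay at 15.2 to 21.96 CPM (median 17.4) and did not pass (0.32, SE 0.118, adjusted p 0.079). In males the medians at 0, 50, 100, 200 and 300 mg/kg-d were 14.8, 19.7, 20.5, 19.2 and 17.8 CPM, with no call. The trend at day 2 was 0.069 per step (SE 0.0187, adjusted p 0.0063), with 9.13% of all genes called higher.

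At day 5 the females fed 2500 ppm had, in the order of their Cyp1a1, 15.6, 24.8, 20.9, 32.2 and 42.9 CPM of Cyp1b1 in lung, against 12.996 to 17.2 CPM (median 14.1) with vehicle. Of these, 4 lay above every vehicle library. The log2 change was 0.88 (SE 0.184, adjusted p 0.042), 1 of 5 genes called higher among 15675 (0.0319%). The call was lost in 8 of 11 fits that left out a library (vehicle replicates 89, 90, 92, 93 and 96, and the dose libraries with 63.8, 1246 and 2347 CPM of Cyp1a1; log2 change 0.66 to 1.03) and without the libraries rich in squamous and basal markers (0.90, adjusted p 0.20). The 2 libraries highest in Cyp1a1 were also the highest in Cyp1b1. Males at that dose lay at 15.6 to 23.4 CPM (median 19.7), against 13.9 to 22.4 CPM (median 17.6) with vehicle (0.11, SE 0.177, adjusted p 0.90). At day 28 Cyp1b1 passed in neither tissue.

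Aldh3a1 in lung rose with the gavage dose in both sexes. At 300 mg/kg-d it lay at 31.6 to 86.4 CPM (median 54.6) in males, against 21.5 to 34.6 CPM (median 28.6) with vehicle. In females it lay at 37.9 to 71.4 CPM (median 52.4), against 13.3 to 30.8 CPM (median 20.1) with vehicle. The female groups did not overlap, and 5 of 6 treated males lay above the highest vehicle male. The log2 changes were 1.01 in males (SE 0.188, adjusted p 0.0059), where 0.105% of all genes were called higher, and 1.32 in females (SE 0.190, adjusted p 9.2e-06), where 3.64% were. At 200 mg/kg-d females lay at 37.1 to 79.3 CPM (median 46.1), all above the highest vehicle female (1.24, SE 0.190, adjusted p 9.0e-05). Males at 200 mg/kg-d lay at 40.5 to 63.2 CPM (median 45.4), also all above the highest vehicle male, and missed the threshold (0.81, SE 0.188, adjusted p 0.099), while DESeq2 called them (adjusted p 0.029).

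The medians at 0, 50, 100, 200 and 300 mg/kg-d were 28.6, 42.04, 43.3, 45.4 and 54.6 CPM in males and 20.1, 24.5, 34.8, 46.1 and 52.4 CPM in females. The trend was 0.294 log2 per step (SE 0.0298, adjusted p 4.8e-10), where 9.13% of all genes were called higher. It passed in all 30 fits that left out a library of the 300 mg/kg-d, vehicle or female 200 mg/kg-d groups. The 8 squamous and basal markers, which mark epithelia that also make Aldh3a1, summed to 4.22 to 11.4 CPM in females given 200 mg/kg-d, 3.99 to 5.93 CPM at 300 mg/kg-d, and 2.44 to 4.41 CPM with vehicle. In males they summed to 2.34 to 6.21 CPM at 300 mg/kg-d and 2.37 to 3.89 CPM with vehicle. Of the 3 that could be tested, 1 was called higher in females at 200 mg/kg-d and 0 at 300 mg/kg-d in either sex, and Dsg3 and Sprr3 had no counts. Without the libraries above 10 CPM the trend was 0.298. The 3 club cell markers were called in neither sex at 300 mg/kg-d, and their sum was 25020 to 115200 CPM in males, against 31900 to 40580 CPM with vehicle. The male lung with 86.4 CPM of Aldh3a1 (replicate 66) was 1 of the 2 lungs with the highest level of the club cell marker Scgb1a1, at 108560 CPM, and without it the change in males was 0.86 (adjusted p 0.014). The other was the male of 150 ppm at day 5 (replicate 98), which had 66.8 CPM of Aldh3a1. Several clock genes moved in some of the same lungs, with Arntl at 1.98 (adjusted p 0.0029), Dbp at -1.78 (adjusted p 0.021) and Nr1d1 at -1.84 (adjusted p 0.039) in females given 300 mg/kg-d. Per1 and Per2 were not called there. In females at 200 mg/kg-d only Arntl was called (1.92, adjusted p 0.0075, edgeR), and in males at 300 mg/kg-d 0 of 5 were. Of 5 T and NK cell markers, 4, 2 and 1 were called lower in females at 300, females at 200 and males at 300 mg/kg-d. Of 5 alveolar type 1 markers, 2, 2 and 1 were called lower in the same order. The part of these genes and markers in Aldh3a1 was not tested.

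After feeding, Aldh3a1 was called at no dose. At day 28 females fed 2500 ppm lay at 17.1 to 50.2 CPM (median 27.8), against 8.75 to 29.8 CPM (median 15.4) with vehicle (log2 change 0.83, SE 0.281, adjusted p 0.21), and males at 27.1 to 82.8 CPM (median 39.04), against 16.04 to 51.9 CPM (median 29.2) with vehicle (0.51, SE 0.272, adjusted p 0.69). Among the females, 1 squamous or basal marker was called higher, and without the libraries above 10 CPM the change was 0.62 (adjusted p 0.55). At day 5 the 2 extreme values, 178 CPM in a male fed 300 ppm and 95.9 CPM in vehicle replicate 90, a female, came from the 2 lungs with the most squamous and basal marker RNA. In liver Aldh3a1 reached at most 3 counts in any library and was at 0 in most of them, where 3 counts correspond to 0.135 to 0.349 CPM.

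Of the feedback genes, Tiparp was called against vehicle or by dose trend only in liver after gavage. Ahrr could be tested against vehicle only in lung at days 5 and 28, and was not called there. Tiparp in liver lay at 4.71 to 86.5 CPM over all libraries and was called once, in females given 200 mg/kg-d, at 7.05 to 86.5 CPM (median 10.2), against 6.97 to 9.30 CPM (median 8.01) with vehicle. That log2 change of 1.49 (SE 0.323, adjusted p 0.0020) rested on replicate 64, at 86.5 CPM where the next library had 12.6 CPM, and was 0.29 (adjusted p 0.30) without it. The same liver had the lowest Cyp1a2 of all livers, at 615 CPM. At 300 mg/kg-d females lay at 9.04 to 13.6 CPM (median 10.2), with 5 of 6 above the highest vehicle library. They did not pass (0.43, SE 0.323, adjusted p 0.33), and passed without replicate 64 (0.42, adjusted p 0.023). The trend in liver at day 2 was 0.145 per step (SE 0.0519, adjusted p 0.021), and 0.083 at the lowest, without replicate 64, still past the threshold. Males given 300 mg/kg-d lay at 7.17 to 10.7 CPM (median 8.91), against 5.40 to 10.2 CPM (median 7.75) with vehicle (0.21, SE 0.332, adjusted p 0.71).

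In lung, Tiparp was called at no dose. Females given 200 mg/kg-d lay at 54.2 to 148.55 CPM (median 59.4), against 49.7 to 62.9 CPM (median 56.99) with vehicle (log2 change 0.38, SE 0.139, adjusted p 0.096), again with replicate 64 as the highest, where the next had 65.1 CPM. At 2500 ppm its log2 changes were 0.01 and -0.06 at day 5 and -0.02 and -0.16 at day 28 in males and females, with the vehicle range overlapping every treated group. Ahrr was at 0 to 5 counts per library in liver, with none in 48 of 180, and at 0.0597 to 1.87 CPM in lung. Females fed 2500 ppm for 5 days had, again in the order of their Cyp1a1, 0.393, 0.360, 0.431, 0.986 and 1.87 CPM in lung, against 0.186 to 0.622 CPM (median 0.299) with vehicle (1.13, SE 0.355, adjusted p 0.62). The highest Ahrr of all lungs was thus in the lung with the highest Cyp1a1.

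The receptor gene Ahr was called at no single dose in either tissue. In liver it lay at 21.2 to 65.1 CPM over all libraries, and the largest log2 change at the highest dose was 0.28 in males at day 28 (40.2 to 57.8 CPM, median 48.8, against 30.4 to 61.5 CPM, median 37.1; SE 0.124, adjusted p 0.51). In lung it lay at 76.8 to 231 CPM. The highest doses gave changes of -0.00 to 0.30, the highest of these in males at day 5, at 157.2 to 208 CPM (median 185), against 112.8 to 175 CPM (median 154.9) with vehicle (SE 0.119, adjusted p 0.52). The lung trend at day 2, 0.050 per step (SE 0.0183, adjusted p 0.049), passed by a narrow margin and was lost in 20 of 30 fits that left out a library (0.039 to 0.061, adjusted p up to 0.107). In that trend 9.13% of all genes were called higher. Cyp1a2 in lung was at 0 in 90 of 179 libraries and reached 63 counts in 1, replicate 12.

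The responses were then compared directly. Between sexes, edgeR called 0 of the 32 tests of a member at the highest dose, with 4 at an unadjusted p under 0.05, where the share of all genes called was 0.00792%, 0 and 0.0387% in liver at days 2, 5 and 28 and 0 in lung on each day. The lowest unadjusted p were those of Cyp1b1 in lung at day 5 (male minus female -0.78, SE 0.256, adjusted p 1.00) and Cyp1b1 in liver at day 28 (-1.55, SE 0.577, adjusted p 0.51). Cyp1a1 in lung at day 5 differed by -1.64 (SE 0.967, adjusted p 1.00), and Cyp1a2 in liver by 0.24 at day 5 (SE 0.175, adjusted p 1.00) and -0.19 at day 28 (SE 0.238, adjusted p 0.93). The calls in a single sex are therefore not shown to be sex specific. Between day 28 and day 5 at 2500 ppm, 0 of 22 tests passed and 2 had an unadjusted p under 0.05, where 0.0914% of all genes passed in female liver and 0 in the other 3. Both were in female lung, Cyp1a1 (-2.48, SE 0.860, adjusted p 0.92) and Cyp1b1 (-0.71, SE 0.283, adjusted p 0.92). Day 2 used gavage and the later days feed, so the difference between those days was not tested.

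Between liver and lung, the effect of the highest dose differed for 1 member in 40 tests. That was Cyp1a2 in females at day 2 (liver minus lung 5.00, SE 1.02, adjusted p 0.00051), where 5.91% of all genes passed, and it rested on the single vehicle lung with 63 counts. Without that lung it was 1.24 (adjusted p 0.64). Its ratio of Cyp1a2 to Alb, 13.8 per 1000, lay within the 5.08 to 34.7 per 1000 of the livers. The share of all genes called was 8.26% in males at day 2, 0.00620% in each sex at day 5, and 0.0805% in males and 0.328% in females at day 28. Over all 40 tests, 6 had an unadjusted p under 0.05. Among these were Cyp1a1 in females at day 5 (-2.46, SE 0.875, adjusted p 0.74), Cyp1b1 in males at day 28 (-1.19, SE 0.505, adjusted p 0.455) and Cyp1b1 in females at day 2 (0.80, SE 0.308, adjusted p 0.11). Cyp1a2 in males at day 5 (-2.61, SE 1.03, adjusted p 0.62) had 33 counts in 1 lung at 2500 ppm. For Aldh3a1, with at most 3 counts in a liver, the difference at day 2 was -0.42 (SE 2.28) in females and -0.007 (SE 0.092) in males. With so few liver counts neither the change nor its SE can compare the tissues. A gene called in 1 tissue is therefore not shown to respond differently in the other.

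Among 20 further genes of the pathway, 18 were tested in liver and 19 in lung, and only NAD(P)H quinone dehydrogenase, Nqo1, a target of both AHR and NRF2, was called in more than 1 table and in both tissues. In liver of males fed 2500 ppm for 5 days it lay at 7.29 to 9.08 CPM (median 8.57), against 3.31 to 5.78 CPM (median 4.62) with vehicle (log2 change 0.85, SE 0.155, adjusted p 0.0021). In lung of females at that dose and day it had a median of 16.6 CPM (13.3 to 28.2), against 9.83 CPM (7.59 to 12.1) with vehicle (0.97, SE 0.147, adjusted p 0.00031). In lung at day 28 it rose by 0.63 in males (SE 0.122, adjusted p 0.026) and 0.72 in females (SE 0.127, adjusted p 0.0076). In all 4 groups every treated library was above every vehicle library. After gavage, Nqo1 in liver was lower at 300 mg/kg-d, by -0.78 in males (adjusted p 0.015) and -0.54 in females (adjusted p 0.045).

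In liver at 300 mg/kg-d, 2 of the 18 were higher and 3, Nqo1 included, lower in each sex, where 15.1% of all genes in males and 30% in females were called in either direction, so the count in females was near the background. Arnt, the partner of AHR, rose by 0.27 in males and 0.23 in females (adjusted p 0.014 and 0.018), and the flavin monooxygenase Fmo2 by 1.25 and 1.13 (adjusted p 0.0014 and 0.00088). The glutathione transferase Gsta1, at under 2 CPM, stood at -1.97 and -2.27 (adjusted p 0.0061 and 0.0091). Cyp2a5 was lower in males only by call (-0.51, adjusted p 0.034) and Ugdh, which makes UDP-glucuronic acid, in females only by call (-0.54, adjusted p 0.018), and the sexes were not tested against each other for these. In lung at that dose 0 were called in males (0.210% of all genes) and 1 in females (8.73%), xanthine dehydrogenase, Xdh (0.50, adjusted p 0.033). At 2500 ppm on days 5 and 28 Nqo1 was the sole call, with 0 calls in female liver at day 5 and in liver of both sexes at day 28. Cyp2a5 and Gsta1 have near-identical copies and are uncertain. The median log2 change of the members tested at the highest dose was 0.08 in males and 0.19 in females at day 2, 0.19 and 0.34 at day 5, and 0.04 and 0.44 at day 28 in liver. In lung it was 0.13 and 0.27, 0.10 and 0.45, and 0.27 and 0.41. Over all genes it was between -0.02 and 0.02.

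Where a liver and a lung carried the same title number, their Cyp1a1 levels went together. Over the 49, 42 and 46 numbers of days 2, 5 and 28, as deviations of log2 CPM from the group mean, Pearson's r was 0.417 and Spearman's rho 0.416 (permutation within groups, p 1e-05 for both, the smallest these permutations can give; adjusted p 4e-05 over 4 genes). It was 0.476 without the 2 numbers farthest from the median, 0.504, 0.243 and 0.513 within days 2, 5 and 28, and 0.291 in males and 0.472 in females. For Cyp1b1 r was 0.139 (rho 0.159, adjusted permutation p 0.18 and 0.14) and for Ahr 0.025 (rho -0.034, adjusted permutation p 0.79 and 0.71). For Tiparp r was 0.400 (rho 0.153, adjusted permutation p 0.13 and 0.14), and 0.098 without the 2 farthest; number 64 was high in both tissues. The labels do not say that a number is 1 animal, and the part of handling order was not tested. With the place in the block of 8 numbers removed, r for Cyp1a1 was 0.434.

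**Figure D5:**
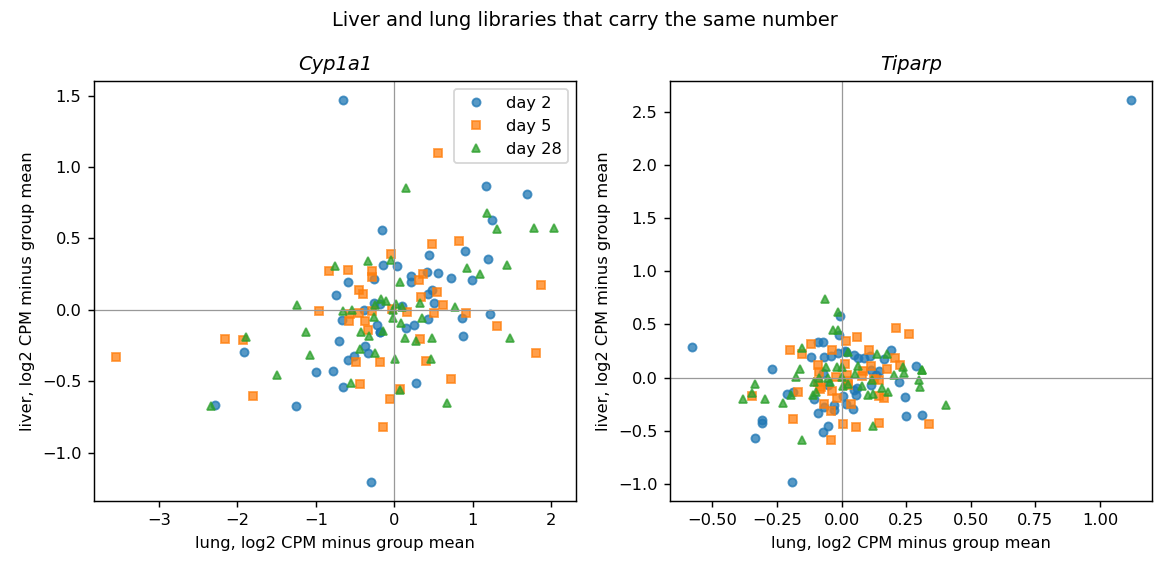
Cyp1a1 (left) and Tiparp (right): deviation from the group mean in log2 CPM in lung (x) and in liver (y) for each title number with both tissues, coloured by day. Points of Cyp1a1 rise together loosely (r 0.417), and in Tiparp 1 number is far from the rest in both tissues.

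Among the members themselves, 20 pairs were compared within a tissue over 180 liver or 179 lung libraries, after centring on each day and sex. In liver Cyp1a1 and Cyp1a2 went together (r 0.361, rho 0.425, adjusted permutation p 6.7e-05 and 1e-04), with r of 0.067, 0.539 and 0.523 at days 2, 5 and 28 and 0.457 without the 2 farthest libraries. The weaker pair of Cyp1a2 with Ahr also passed in liver (r 0.184, rho 0.183, adjusted permutation p 0.032 and 0.039; 0.146, 0.211 and 0.218 by day, 0.149 without the 2 farthest). In lung the pairs with the highest r were Cyp1a1 with Cyp1b1 (r 0.375, rho 0.297, adjusted permutation p 6.7e-05 and 0.00067; 0.248, 0.414 and 0.414 by day, 0.260 without the 2 farthest) and Cyp1b1 with Aldh3a1 (r 0.336, rho 0.399, adjusted permutation p 6.7e-05 and 1e-04; 0.468, 0.328 and 0.263 by day, 0.364 without the 2 farthest). Aldh3a1 and Ahr ran against each other (r -0.273, rho -0.194, adjusted permutation p 0.0015 and 0.039; -0.127, -0.429 and -0.235 by day, -0.261 without the 2 farthest). Cyp1a1 and Ahr in lung passed at a low r (r 0.181, rho 0.192, adjusted permutation p 0.043 and 0.039; 0.023, 0.224 and 0.256 by day, 0.207 without the 2 farthest). In liver Cyp1b1 with Tiparp passed by r alone (r 0.265, adjusted permutation p 0.0084). Its rho was 0.142 (adjusted permutation p 0.14), and its r was 0.136 without the 2 farthest and 0.494, 0.318 and -0.094 by day. These libraries include every dose, so a shared dose response enters the r.

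The genes most like each member in the same centred values, out of 12475 in liver and 15161 in lung, are given as a description. In liver, Cyp1a2 was most like the cytochromes Cyp2c50, Cyp2c55 and Cyp2c29 (r 0.612, 0.612 and 0.611), and Cyp1a1 was most like Srxn1, Cyp26a1 and Htatip2 (0.479, 0.478 and 0.447). Cyp1b1 in liver was most like Timp2, Npnt and Myh11, the smooth muscle myosin (0.538, 0.535 and 0.521). In lung, Aldh3a1 was most like Gpx2, a glutathione peroxidase of epithelia, Klk11 and Cxcl17 (0.771, 0.753 and 0.750), and Tiparp was most like the early response gene Klf6, Trp53inp1 and Pcf11 (0.782, 0.734 and 0.723). Cyp1a1 in lung was most like Neurl3, the endothelial receptor Acvrl1 and Bdkrb2 (0.518, 0.501 and 0.418), and Cyp1b1 was most like Cd55, Pde3b and Slc38a1 (0.602, 0.494 and 0.483). Ahr was most like Arhgef3, Cep85l and Ppap2b in liver (0.587, 0.581 and 0.575) and Pcdh17, Zfp608 and Tet1 in lung (0.790, 0.788 and 0.762). Tiparp in liver was most like Setdb2, Suco and Tead1 (0.643, 0.640 and 0.627), values that fell to 0.230, 0.369 and 0.319 without the 2 farthest libraries.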

How the data were processed

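RNA of 180 livers and 179 lungs was made into stranded mRNA libraries (TruSeq, per the labels' protocols). The submitters' processing notes name Trimmomatic, Bowtie2, SAMtools, HTSeq and the build mm10. The sources used here do not give tool versions, the annotation or the strand setting. The authors deposited unnormalised read counts for each gene in 6 tables, 1 for each tissue and day. A further column of the day 28 lung table matched no library and was not used (1 column). Groups came from the titles.

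Each table was fitted with edgeR 4.0.16 (filterByExpr, TMM, quasi-likelihood, robust) in R 4.3.3 over all its groups, with p-values adjusted by Benjamini-Hochberg over all genes and a threshold of 0.05. The dose trend is a linear contrast over the 5 dose levels as steps of equal size, averaged over the sexes. Liver and lung were compared in joined fits of each day. CPM are TMM-scaled. DESeq2 1.42.0 was an alternative, and permutation tests were run in Python 3.11.15 or R. The scripts were tested on simulated data. The members, marker lists and other gene lists were chosen with earlier results of these data known. Named besides the 7 members are the pathway genes past the threshold at the highest dose, the reporters beside a called member, and the 3 genes most like each member.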

Additional observations from a re-analysis of the deposited data

Results flagged for a closer look

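Single libraries stood apart from their group in 32 of 320 tests of a gene in a group by Dixon's criterion, where chance gives about 1 in 20. Each value is in CPM with the nearest other library of its group after it.

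In liver at day 2, replicate 64 (female, 200 mg/kg-d) had 3.81 of Cyp1b1 (next 1.61) and 86.5 of Tiparp (next 12.6). In liver at day 5, Cyp1a1 was 2.57 (male, 300 ppm, next 2.08), 3.62 (female, 150 ppm, next 2.01) and 6.89 (female, 2500 ppm, next 3.25). Ahr was lowest at 30.6 (male, 2500 ppm, next 42.8), and Cyp1b1 was 1.05 (female, vehicle, next 0.580). In liver at day 28, Ahr was 54.1 (male, 150 ppm, next 35.2) and 61.5 (male, vehicle, next 37.4). Tiparp was 13.9 (male, 300 ppm, next 8.92) and 10.6 (female, 300 ppm, next 8.99). Cyp1a2 was 2863 (male, 1250 ppm, next 1650.0) and lowest at 1040.0 (female, 1250 ppm, next 1567). Cyp1a1 was 4.49 (female, 1250 ppm, next 2.56).

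In lung at day 2, Cyp1a1 was 274 (male, 50 mg/kg-d, next 121.98), Cyp1b1 was 26.7 (male, 200 mg/kg-d, next 20.8) and Tiparp was 148.55 (female, 200 mg/kg-d, next 65.1). In lung at day 5, Cyp1a1 was 372 (male, 300 ppm, next 52.9), 272 (male, 2500 ppm, next 108.4) and 227 (female, 1250 ppm, next 77.6). Aldh3a1 was 66.8 (male, 150 ppm, next 29.1), 178 (male, 300 ppm, next 25.5) and 95.9 (female, vehicle, next 24.2). Cyp1b1 was 27.4 (female, 150 ppm, next 18.3) and 24.9 (female, 300 ppm, next 16.9), and Ahrr was 0.609 (female, 1250 ppm, next 0.393). In lung at day 28, Cyp1a1 was 80.1 (male, 150 ppm, next 28.5) and 117.3 (female, 300 ppm, next 45.6). Cyp1b1 was lowest at 16.4 (male, 2500 ppm, next 24.5) and was 45.3 (female, vehicle, next 16.8). Aldh3a1 was 82.8 (male, 2500 ppm, next 41.8) and 29.8 (female, vehicle, next 15.99).

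The response of Cyp1a2 to 300 mg/kg-d in females differed between liver and lung by 5.00 on the log2 scale (adjusted p 0.00051, edgeR), which flagged it as a difference between tissues. It rested on the vehicle lung of replicate 12.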

How the results depend on the processing

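Of 686 alternative values of the 76 counts of members called, 640 stayed within 1.5 times the reported count, and of 551 alternative values of the 53 called changes 497 kept their direction and side of the threshold, 54 lost the threshold and 0 reversed. The alternatives with the place of a number, without replicates 12 or 64, without the lungs rich in squamous and basal markers, and without single libraries in the trend were chosen after seeing the data. In liver of females at 200 mg/kg-d the reported 2 (Cyp1b1 and Tiparp) became 1 without replicate 64, where both were lost and Cyp1a2 passed, and 0 when only the compared groups were fitted, and ranged from 1 to 3 without single replicates. At 300 mg/kg-d the reported 1 became 2 without replicate 64 and 2 with only the compared groups, with a range of 1 to 2. In liver at day 5 the count in females at 2500 ppm ranged from 0 to 1 and that of the trend from 1 to 2 without single replicates. In females at 2500 ppm on day 28 the reported 1 became 0 without the filter on low counts (Cyp1a2 adjusted p 0.057) and 0 with only the compared groups, and ranged from 0 to 1 without single replicates. In lung at day 2 the count in males at 200 mg/kg-d, reported as 0, became 1 with only the compared groups and 1 with DESeq2, and that in males at 300 mg/kg-d became 0 with only the compared groups. For females at 200 mg/kg-d the reported 2 became 1 without replicate 64 (Aldh3a1) and 0 with only the compared groups, with a range of 1 to 3, and at 300 mg/kg-d the reported 1 became 2 without the filter, where Cyp1a2 was called lower (-5.19, adjusted p 0.0033; -6.35 at 200 mg/kg-d) against vehicle lungs that include replicate 12 with its 63 counts, and 2 with only the compared groups (Cyp1b1), with a range of 1 to 2. In lung of females at 2500 ppm on day 5 the reported 1 became 0 without the filter, 0 without the lungs rich in squamous and basal markers, 0 with only the compared groups and 2 with DESeq2, with a range of 0 to 2. The trend there became 2 with the place of the number as a covariate and ranged from 1 to 2. In lung of females at 2500 ppm on day 28 the count ranged from 0 to 1. The liver and lung difference in females at day 2 became 0 without replicate 12. The cause of these changes was not tested. The fits of only the compared groups hold fewer libraries, and the filter, the scaling and the estimate of the spread were also redone in them.

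The labels link liver and lung libraries of the same number by that number alone. Their deviations correlated with a median r of 0.077, 0.042 and 0.059 at days 2, 5 and 28 (49, 42 and 46 pairs), over 0.1 in 13, 9 and 10 pairs. Among the numbers of the same group, at most 6, 39, 24 and 27 livers correlated best with the lung of their own number. The count that chance would give was not computed. Whether a number is 1 animal was not tested. With the number as a block, the counts for the difference of effects stayed at 1 in females at day 2 and 0 elsewhere, and that for the vehicle level of females at day 5 was 6, against 5 reported. Low counts limit Ahrr and Aldh3a1 in liver and Cyp1a2 in lung.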
